A study of Drosophila melanogaster with 34 samples.

Results

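The core copper response was defined here as the genes whose expression changed on copper across 6 inbred European strains of *D. melanogaster* and whose change had the same sign in every one of them. All 34 RNA-seq libraries of the series were fitted together in an additive model of strain and treatment, with no term for copper tolerance. A gene was called when its adjusted *p*-value was below 0.05 and its fold change over 1.5, in the quasi-likelihood test of edgeR, adjusted by Benjamini and Hochberg's method over all genes tested. Of 12511 genes tested, 546 were called (4.36%), and 236 of these had 1 sign in all 6 strains.

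The copper libraries were made from females kept for 24 h on filter paper with 20 mM CuSO4 in 5% sucrose, and the control libraries from females kept on the same sucrose solution without copper. Each library held RNA from whole bodies of 20 mated females, given in the sample descriptions as 3 to 7 days old. Copper-tolerant strains were MUN-008, MUN-020 and GIM-012, copper-sensitive ones COR-018, AKA-018 and JUT-008, and each is a single inbred line. There were 3 libraries per strain and treatment, except that AKA-018 and MUN-020 had 2 control libraries each, giving 18 copper and 16 control libraries. Dead flies of COR-018 and JUT-008 had been taken out before RNA extraction, and replicates had been retained by RNA quality. The labels number the replicates and the methods describe them as biological.

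Copper is an essential cofactor of enzymes such as cytochrome *c* oxidase and Cu/Zn superoxide dismutase, but free copper ions are toxic because they drive the formation of reactive oxygen species and displace other metals from proteins. In *Drosophila*, an excess of copper is sensed by the transcription factor MTF-1, which binds metal response elements and induces the metallothioneins, small cysteine-rich proteins that bind the ions. Copper entering with food is taken up and stored in the midgut, in particular in the copper cells, which also acidify the gut lumen.

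The depth was 26965125 to 39460199 counted reads in copper libraries and 22796637 to 42567920 in control libraries. Several sums of marker genes differed between libraries, in CPM (TMM-normalized counts scaled to a common library size). The 11 follicle cell and eggshell markers summed to 8.68 to 24.8 CPM in copper libraries of COR-018, against 1750 to 5553 CPM in its control libraries. The 9 ovarian germline markers summed to 1692 to 1817 CPM in copper libraries of GIM-012, against 2715 to 3901 CPM in its control libraries, while the 6 fat body markers summed to 13079 to 16609 CPM and 6129 to 10829 CPM in the same groups. In COR-018 the fat body sums were 6518 to 8877 CPM in copper libraries, against 11017 to 19520 CPM in control libraries. They were also lower on copper without overlap in MUN-020, AKA-018 and JUT-008, and overlapped in MUN-008. The 6 genes, which include the yolk genes *Yp1*, *Yp2* and *Yp3*, did not all move together. In COR-018 and JUT-008 all 6 were lower, in AKA-018 and MUN-020 4, in MUN-008 3 and in GIM-012 0. Although all flies were labelled as females, the 15 male accessory gland genes summed to up to 43.8 CPM in copper libraries and up to 156 CPM in control libraries, with the high sums in the control libraries of AKA-018 (69.3 and 90.97 CPM) and in some libraries of COR-018 and JUT-008. Of those 15 genes, 6 were called lower and none of the 6 had 1 sign in all strains. The 5 testis genes, none of them called, summed to 18.5 to 23.9 CPM in control libraries of AKA-018. They reached 67.95 CPM in control and 44.7 CPM in copper libraries of JUT-008, and 35.1 and 40.9 CPM in COR-018. In copper libraries of AKA-018 the sums were at most 0.0295 CPM for testis and 2.16 CPM for accessory gland genes. In AKA-018 these sums therefore cannot be told apart from the treatment. Since whole bodies were sequenced, fewer cells of a type and less RNA per cell cannot be told apart.

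The called genes comprised 215 with higher expression in copper (1.72% of genes tested) and 331 with lower expression (2.65%). The sign was shared by all 6 strains in 116 of the 215 higher genes and in 120 of the 331 lower genes, while 867 of all genes tested (6.93%) had 1 sign in all strains. The sign and the call come from the same libraries, so these counts describe the response and do not test it. Higher genes that fell short of 6 strains had the same sign in 5 strains for 84 genes and in 4 strains for 15 genes. Lower genes had the same sign in 5 strains for 184 genes, in 4 strains for 18 genes and in 3 strains for 9 genes. At the border of the rule, *Cyp4e3* was included with a log2 fold change of 0.004 in JUT-008 and *CG43085* was left out with -0.0003 in MUN-020. Among the lower genes, *Npc1b* was included with -0.0005 in GIM-012 and *mag* was left out with 0.006 in GIM-012.

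The core genes included 103 protein-coding genes among the 116 higher and 111 among the 120 lower. They took 0.910% to 2.14% of all counted reads in copper libraries for the higher genes, against 0.364% to 0.709% in control libraries. The lower genes took 0.105% to 0.633% in copper libraries, against 0.392% to 1.09% in control libraries. The fold change exceeded 1.5 in every strain for 31 of the higher and 24 of the lower core genes, where 0.448% of all genes tested did so in 1 direction. The copper and control libraries did not overlap in any strain for 40 of the higher and 19 of the lower core genes, against 0.607% of all genes tested. Both rules demand 1 direction in every strain, as the core does, so these shares describe the core and do not test it. In the model with a treatment term for each strain, 18 of the core genes were called in each of the 6 strains, 13 of them higher in copper (*MtnA*, *MtnB*, *MtnC*, *MtnD*, *MtnE*, *CG5966*, *hll*, *Sardh*, *Miox*, *CG32444*, *Sodh1*, *Lip3* and *CG3534*) and 5 lower (*phu*, *CG32751*, *CG8661*, *CG11892* and *CG5773*). In contrast, 17 of the higher and 13 of the lower core genes were called in no single strain.

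All 5 metallothionein genes rose in every strain and showed no overlap between copper and control libraries within any strain. The 3 largest increases among core genes with a mean of at least 2 CPM were those of *MtnB*, *MtnD* and *MtnE*. All lie on chromosome arm 3R of dm6, with *MtnD* at 20534962 to 20535301 on the plus strand and *MtnE* at 20534021 to 20534704 on the minus strand next to it. *MtnB* lies at 20503102 to 20503746, *MtnC* at 20360308 to 20360634 and *MtnA* apart from them at 9783407 to 9784370. The median log2 fold change of the 5 genes was 4.11, against -0.01 for all genes tested.

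*MtnB* ranged from 129 to 905 CPM in copper libraries with a median of 342 CPM, against 1.33 to 18.01 CPM in control libraries with a median of 5.25 CPM. The lowest copper library was above the highest control library, and the fitted increase was 56.3-fold (log2 fold change 5.81 ± 0.27 SE, adjusted *p* = 4.1e-16 by edgeR). Ordered by strain, COR-018 had the highest log2 fold change (6.86), followed by GIM-012 (6.45), MUN-008 (6.18), JUT-008 (5.64), AKA-018 (5.20) and MUN-020 (4.33). The copper effect on *MtnB* differed among strains by more than the replicates did (adjusted *p* = 0.018, edgeR's F test of the strain by treatment terms).

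*MtnD* ranged from 61.5 to 333 CPM (median 139 CPM) in copper libraries, against 1.36 to 25.8 CPM (median 5.48 CPM) in control libraries. The groups did not overlap, and the log2 fold change was 4.73 ± 0.26 (adjusted *p* = 6.4e-14). *MtnE* ranged from 53.6 to 218 CPM (median 120 CPM) in copper libraries, against 2.07 to 32.9 CPM (median 5.09 CPM) in control libraries, and again the groups did not overlap (log2 fold change 4.11 ± 0.26, adjusted *p* = 6.1e-13). The highest control libraries of both genes were those of MUN-020, with 22.4 and 25.8 CPM for *MtnD* and 32.2 and 32.9 CPM for *MtnE*. The increase in MUN-020 was smaller than the mean of the other 5 strains for *MtnD* (log2 fold change 2.42, adjusted *p* = 0.00017) and *MtnE* (1.85, adjusted *p* = 0.00021).

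*MtnA* ranged from 1656 to 6360 CPM (median 3013 CPM) in copper libraries, against 382 to 1845 CPM (median 644 CPM) in control libraries. The pooled ranges overlapped, but within each strain every copper library was above every control library (log2 fold change 2.03 ± 0.13, adjusted *p* = 1.5e-12). The test among strains did not pass for *MtnA* (adjusted *p* = 0.054), whose strain values ran between 1.32 in MUN-008 and 2.56 in GIM-012. *MtnC* ranged from 63.0 to 493 CPM (median 246 CPM) in copper libraries, against 6.86 to 141 CPM (median 57.1 CPM) in control libraries, and changed by 2.07 ± 0.14 on the log2 scale (adjusted *p* = 3.9e-12). Only within strains were its copper libraries all above the control libraries.

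**Figure D1:**
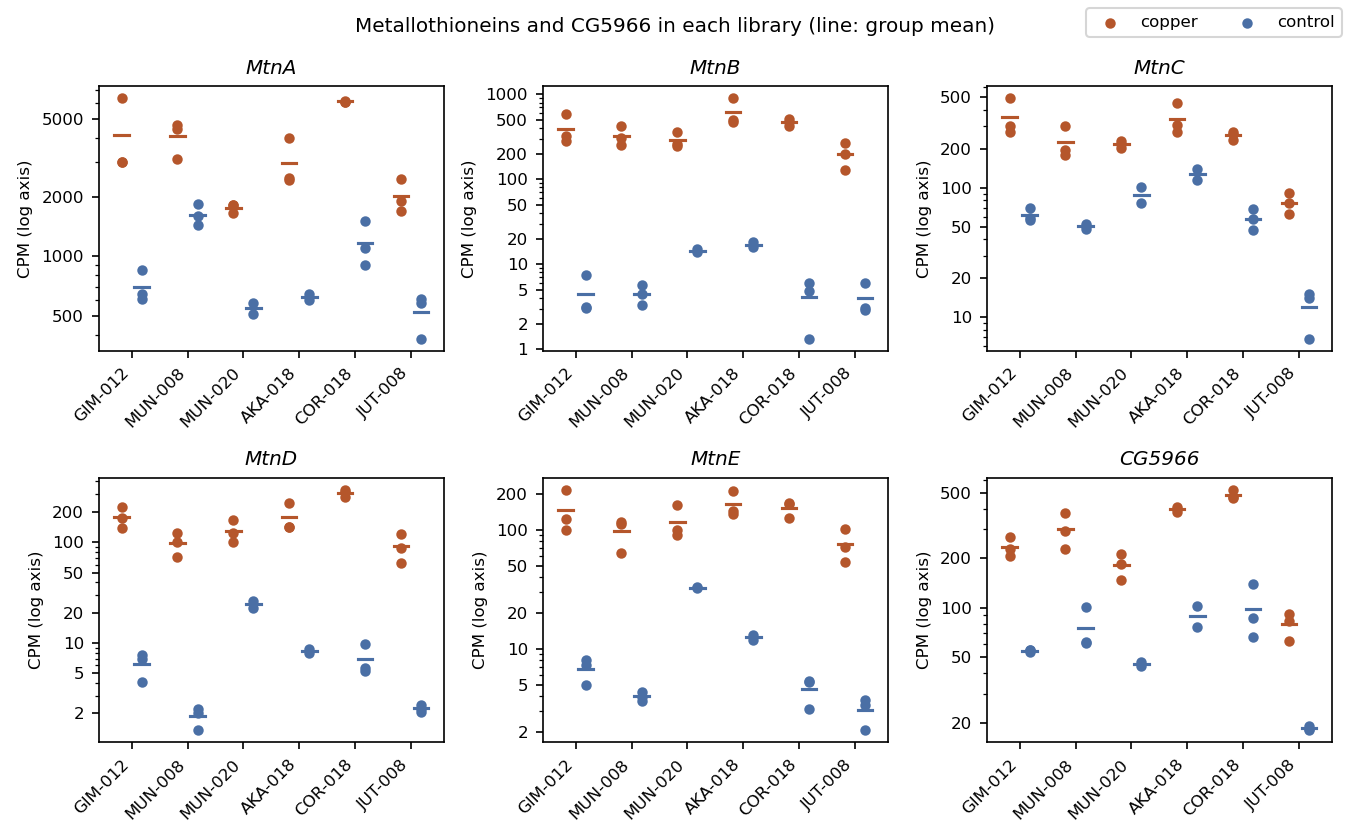
CPM (log axis) of the 5 metallothionein genes and *CG5966* in each library, by strain, with copper libraries left of control libraries. Points are libraries and lines are group means. In each panel and strain every copper library lies above every control library, and the control libraries of MUN-020 are the highest for *MtnD* and *MtnE*.

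The genes that sense, take up and deliver copper did not show such changes. None of the 10 copper handling genes tested was called by edgeR or by DESeq2, 3 had an unadjusted *p* below 0.05, and none had 1 sign in all strains. Their log2 fold changes ran from -0.23 for *Ctr1B*, a copper importer, to 0.02 for *ATP7*, the copper-exporting ATPase. *MTF-1* had a median of 51.2 CPM in copper libraries and 52.8 CPM in control libraries (log2 fold change -0.03 ± 0.05, adjusted *p* = 0.74). *Sod1*, which encodes Cu/Zn superoxide dismutase, had medians of 354 and 373 CPM in copper and control libraries (-0.01 ± 0.06, adjusted *p* = 0.91).

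Among the most uniform members was *CG5966*, a predicted triglyceride lipase on the X chromosome (5988791 to 5992640, plus strand). It ranged from 62.5 to 525 CPM (median 249 CPM) in copper libraries, against 17.97 to 140 CPM (median 58.4 CPM) in control libraries. Libraries did not overlap within any strain, and the log2 fold change was 2.12 ± 0.09 (adjusted *p* = 1.2e-16), the lowest *p* of all genes tested. The values of the strains lay between 2.0 in MUN-020 and 2.32 in COR-018, and the test among strains did not pass (adjusted *p* = 0.94). *CG5966* is among 10 candidate genes that the study picked from these libraries, so its place here is not independent evidence.

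Enzymes of sugar and polyol metabolism formed the next group. Of 7 tested, 5 were called higher, all with 1 sign in 6 strains, and the median log2 fold change of the list was 0.95. Over all genes tested, 1.72% were called higher. *Sodh1*, *Miox* (*CG6910* in the study), *CG32444* and *CG11594* are among the 10 candidate genes that the study picked from these libraries. The count and the median of this list are therefore not independent evidence. *Sodh1*, a sorbitol dehydrogenase, ranged from 202 to 712 CPM (median 328 CPM) in copper libraries, against 34.5 to 141 CPM (median 88.9 CPM) in control libraries. The groups did not overlap, and the log2 fold change was 1.93 ± 0.14 (adjusted *p* = 8.6e-12). *Miox*, which cleaves myo-inositol in the first step of its breakdown, ranged from 379 to 1409 CPM (median 686 CPM) in copper libraries, against 119 to 373 CPM (median 251 CPM) in control libraries. Its groups did not overlap either (1.56 ± 0.11, adjusted *p* = 4.2e-12).

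*CG32444*, a predicted aldose 1-epimerase, rose in every strain changing by 1.68 ± 0.13 on the log2 scale (adjusted *p* = 1.2e-10), from 0.98 in COR-018 to 2.51 in GIM-012. *Sodh2*, the paralogue of *Sodh1*, rose by 0.83 ± 0.08 (adjusted *p* = 1.2e-08) and *CG11594*, a predicted carbohydrate kinase, by 0.95 ± 0.09 (adjusted *p* = 1.0e-08) on the log2 scale. The remaining members *CG3609* (0.44 ± 0.09) and *Had2* (-0.11 ± 0.17) were not called. *CG3534*, a predicted xylulokinase outside this list, had a small but even change. It ranged from 59.5 to 95.7 CPM (median 74.8 CPM) in copper libraries, against 37.7 to 50.9 CPM (median 44.4 CPM) in control libraries, without overlap (0.75 ± 0.04, adjusted *p* = 3.0e-13). Its strain values ran from 0.61 to 0.99, and the test among strains did not pass (adjusted *p* = 0.12).

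One-carbon metabolism moves single carbon units between glycine, serine, methionine and folates. Of 9 genes tested in this list 4 were called higher, and *Sardh*, *Gnmt* and *pug* had 1 sign in all strains. Over all genes tested, 1.72% were called higher. *Sardh*, sarcosine dehydrogenase, ranged from 17.6 to 62.0 CPM (median 35.2 CPM) in copper libraries, against 3.41 to 26.1 CPM (median 7.52 CPM) in control libraries, with no overlap within strains (2.0 ± 0.14, adjusted *p* = 1.0e-11). *Gnmt*, the glycine N-methyltransferase that makes sarcosine, changed by 1.88 ± 0.24 (adjusted *p* = 1.3e-06), with strain values from 0.61 in MUN-008 to 3.18 in JUT-008. *pug*, a folate-interconverting enzyme, changed by 1.2 ± 0.13 (adjusted *p* = 9.5e-08), from 0.29 in MUN-020 to 1.95 in JUT-008. *Shmt*, serine hydroxymethyltransferase, was called higher (0.62 ± 0.13, adjusted *p* = 0.0011) but was at -0.15 in MUN-020.

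Genes of lipid and starch breakdown were mixed. *hll*, a gene of the fatty acyl-CoA synthetase list, ranged from 18.3 to 69.8 CPM (median 28.3 CPM) in copper libraries, against 2.33 to 6.95 CPM (median 4.48 CPM) in control libraries. No copper library overlapped the control libraries (2.86 ± 0.17, adjusted *p* = 3.0e-13), and *hll* was the only called gene among the 9 of its list. Of 19 gut lipases 6 were called higher, 4 with 1 sign, and 4 were called lower, 2 with 1 sign. The shares over all genes tested were 1.72% called higher and 2.65% called lower. *Lip3* was higher in all strains (1.78 ± 0.17, adjusted *p* = 8.5e-09), as was *bmm*, the lipase of the fat body's lipid stores (0.69 ± 0.07, adjusted *p* = 6.9e-09), whereas the lipase *CG17192* was lower in all (-2.58 ± 0.31, adjusted *p* = 6.2e-07). Of 14 maltases and amylases 3 were called higher, 2 with 1 sign. *Amyrel* changed by 1.75 ± 0.22 (adjusted *p* = 9.6e-07), and *Mal-B1* by 1.05 ± 0.13 (adjusted *p* = 8.0e-07) with a value of 0.16 in MUN-020.

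Of 18 stress targets of the JNK and JAK-STAT pathways 4 were called higher, where 1.72% of all genes tested were. All were members of the Turandot family of secreted stress peptides, and the median of the list was 0.01. *TotM* ranged from 6.32 to 668 CPM (median 59.1 CPM) in copper libraries, against 2.68 to 194 CPM (median 12.6 CPM) in control libraries. The pooled groups overlapped, but within each strain they did not (2.18 ± 0.25, adjusted *p* = 2.9e-07), and the test among strains did not pass (adjusted *p* = 0.41). *TotC* (1.2 ± 0.22) and *TotA* (1.08 ± 0.19) also had 1 sign, with non-overlapping libraries in 4 and 3 strains.

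Of 35 glutathione S-transferases, which conjugate xenobiotics, 4 were called higher and 1 lower, and the 3 with 1 sign were *GstD5* (2.01 ± 0.37, adjusted *p* = 0.00027), *GstD6* (1.47 ± 0.36, adjusted *p* = 0.0050) and *GstD4* (1.33 ± 0.22, adjusted *p* = 6.9e-05). *GstD5* was at 3.41 in AKA-018 and 3.73 in COR-018, but at 0.40 in MUN-020. Without COR-018, *GstD6* was no longer called (adjusted *p* = 0.079), and without both AKA-018 and COR-018 neither *GstD5* (1.23, adjusted *p* = 0.068) nor *GstD6* (0.61, adjusted *p* = 0.39) was. *GstD4* and *GstD6* had low levels, with medians of 0.568 and 0.303 CPM in copper libraries, against 0.284 and 0.167 CPM in control libraries. Of 79 cytochrome P450 genes 4 were called higher and 2 lower, and *Cyp4e3* alone had 1 sign (1.51 ± 0.20, adjusted *p* = 2.6e-06). For both families these counts stand beside 1.72% of all genes tested called higher and 2.65% called lower. The candidates *Cyp6w1* (0.71 ± 0.13) and *Cyp6a8* (0.68 ± 0.16) were called but were at -0.32 in JUT-008 and -0.06 in MUN-020. No gene was called by edgeR among 16 heat shock proteins, 21 antioxidant enzymes, 17 genes of the unfolded protein and integrated stress responses, 32 proteasome subunits or 10 iron genes. At an unadjusted *p* below 0.05 there were 8, 5, 3, 0 and 1 of these, and DESeq2 called 2 of them, both heat shock proteins (*Hsp23* and *Hsp70Bc*).

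*atk*, which encodes an extracellular protein with leucine-rich repeats, ranked among the largest increases. It ranged from 0.577 to 45.2 CPM (median 4.27 CPM) in copper libraries, against 0.0901 to 2.03 CPM (median 0.387 CPM) in control libraries. Libraries did not overlap within strains (4.0 ± 0.46, adjusted *p* = 2.2e-07), while strain values differed between 1.80 in MUN-020 and 5.86 in COR-018 (adjusted *p* = 0.0054). *CG12826* (2.17 ± 0.30) was also among the largest increases. The midgut peptidase *Jon66Cii* (2.30 ± 0.32) had a mean below 2 CPM and so was not ranked with them. Its median was 0.845 CPM in copper libraries and 0.0933 CPM in control libraries. In JUT-008 it had 7, 2 and 12 reads in copper libraries, against 0, 2 and 3 reads in control libraries. *Jon66Cii* was the one midgut peptidase called higher.

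**Figure D2:**
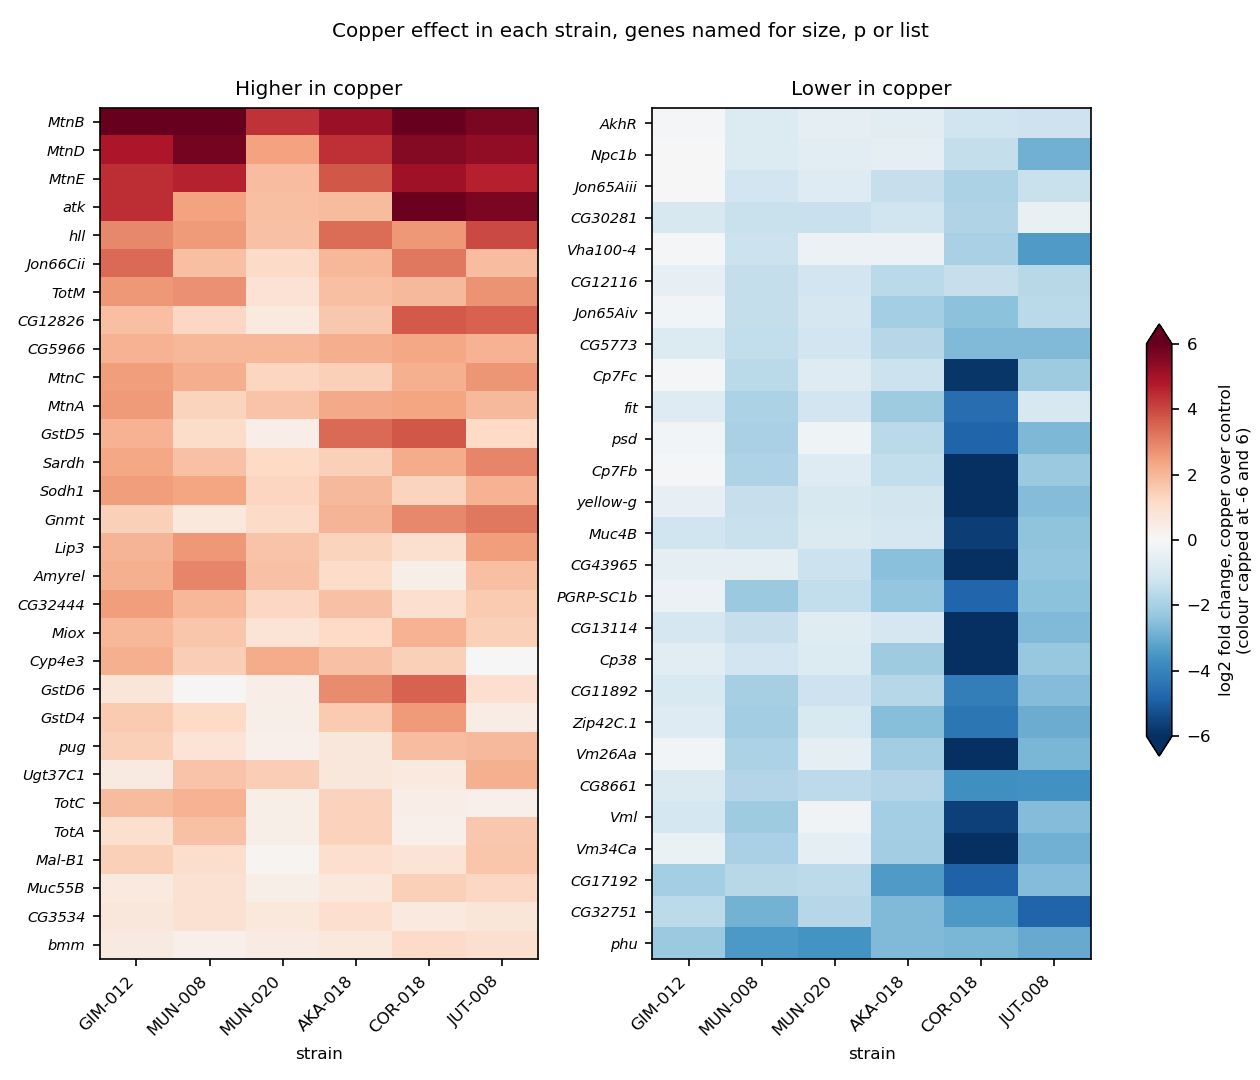
Log2 fold change of copper over control in each strain for core genes named for the size of their change, their *p*-value or their gene list (left panel higher in copper, right panel lower). Colour is capped at -6 and 6. The columns of MUN-020 in the left panel and of GIM-012 in the right panel are the palest, and COR-018 has the strongest colours for eggshell genes such as *Cp38* (-12.35).

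Among the lower core genes with a mean of at least 2 CPM, *phu* (3R, 9494801 to 9496723, plus strand) had the largest decrease and the lowest *p*. It ranged from 0.216 to 7.80 CPM (median 1.96 CPM) in copper libraries, against 1.599 to 50.9 CPM (median 11.5 CPM) in control libraries. Pooled over strains the groups overlapped, but within each strain they did not (-2.94 ± 0.22, adjusted *p* = 2.6e-11). Its strain values ran from -3.57 in MUN-020 to -2.21 in GIM-012, and the test among strains did not pass (adjusted *p* = 0.56).

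*CG32751*, from the list of peritrophins and chitin enzymes, fell in every strain without overlap of the libraries (-2.81 ± 0.26, adjusted *p* = 3.3e-09). *CG8661* ranged from 2.47 to 42.8 CPM (median 25.1 CPM) in copper libraries, against 39.8 to 154 CPM (median 73.2 CPM) in control libraries, with overlap only between strains (-2.20 ± 0.23, adjusted *p* = 4.2e-08). *CG11892* (-2.11 ± 0.22), *CG5773* (-1.74 ± 0.16) and *CG12116* (-1.29 ± 0.10) were likewise lower without overlap in any strain. Of 40 peritrophins and chitin enzymes, which line and remodel the barrier between gut lumen and epithelium or the cuticle, 6 were called higher and 6 lower, 4 of each with 1 sign. Over all genes tested, 1.72% were called higher and 2.65% lower.

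Among the lists, eggshell genes gave the most core decreases. The eggshell is secreted by follicle cells in the last stages of oogenesis, the vitelline membrane before the chorion. Of 12 chorion genes 10 were called lower, 8 with 1 sign, and all 9 vitelline membrane genes were called lower, 4 with 1 sign. Over all genes tested, 2.65% were called lower. The medians of the lists were -1.94 and -2.05. *Cp36* ranged from 0.131 to 746 CPM (median 196 CPM) in copper libraries, against 175 to 1231 CPM (median 708 CPM) in control libraries. The pooled groups overlapped, and within strains the libraries did not overlap in 5 of 6 (-1.98 ± 0.58, adjusted *p* = 0.021). The call of *Cp36* was lost without AKA-018 (adjusted *p* = 0.065) and without JUT-008 (adjusted *p* = 0.11), and that of *Cp38* likewise (adjusted *p* = 0.067 and 0.098). In these settings 8 and 7 chorion genes were called lower, while all 9 vitelline membrane genes were still called.

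The 3 copper libraries of COR-018 held 5, 10 and 12 reads of *Cp36*, against 15416 to 43033 reads in its control libraries. The change of *Cp36* was -11.48 in COR-018 and ran from -2.23 in JUT-008 to -0.40 in GIM-012 in the other strains. The vitelline membrane gene *Vm34Ca* (-2.28 ± 0.49, adjusted *p* = 0.0015) was at -7.55 in COR-018 and at -0.41 in GIM-012. The change in COR-018 differed from the mean of the other 5 strains for all 12 chorion and all 9 vitelline membrane genes. Over all genes tested, 8.30% did so. The change in GIM-012 differed for 10 chorion and 8 vitelline membrane genes, where 43.0% of all genes tested did so. With COR-018 left out, 10 chorion and 9 vitelline membrane genes were still called lower, with medians of -1.31 and -1.43. The follicle cell and eggshell markers summed above are themselves chorion and vitelline membrane genes, so those sums are no separate measure. The part of the number of follicle cells in the decrease was not tested.

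The female-specific satiety gene *fit* was lower in all strains without overlap (-1.83 ± 0.28, adjusted *p* = 1.9e-05), from -4.57 in COR-018 to -0.76 in GIM-012. *AkhR*, the receptor of the adipokinetic hormone, was lower (-0.76 ± 0.10, adjusted *p* = 2.7e-06) but was at -0.05 in GIM-012. It is a receptor of fat body cells, and the part of the fat body sums given above in its decrease was not tested. Both belong to a list of 20 insulin and starvation genes, in which 2 were called higher and 3 lower, beside 1.72% and 2.65% of all genes tested. Yolk and lipoprotein genes had 1 called member of 9, *Yp2*, which was not of 1 sign.

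Digestive peptidases differed in sign between GIM-012 and the other strains, and in size among those other strains. Of 30 midgut peptidases 17 were called lower, where 2.65% of all genes tested were, but only 4 of these 17 had 1 sign. The 30 genes summed to 1010 to 7196 CPM (median 3991 CPM) in copper libraries, against 2336 to 10948 CPM (median 5608 CPM) in control libraries. In GIM-012 the sums were 3973 to 5872 CPM in copper libraries and 3136 to 4966 CPM in control libraries, and 5 of the 30 genes were lower. In the other strains 23 to 29 of the 30 were lower. The effect in GIM-012 differed from the mean of the others for 26 of the 30 genes, where 43.0% of all genes tested did so. That in COR-018 differed for 21 of the 30 genes, where 8.30% of all genes tested did so. The median log2 fold change was 0.54 in GIM-012, -2.06 in COR-018 and -1.1 to -0.55 in the remaining strains. Without GIM-012, 23 were called lower and 21 of those had 1 sign in the other 5 strains. Without AKA-018 and COR-018, 5 were called lower.

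*Jon65Aiv* ranged from 105 to 683 CPM (median 277 CPM) in copper libraries, against 222 to 1364 CPM (median 717 CPM) in control libraries (-1.46 ± 0.16, adjusted *p* = 1.3e-07). Its libraries did not overlap in 5 strains, and in GIM-012 it was at -0.16. Of the other midgut peptidases, *Jon65Aiii* was also in the core (-1.11 ± 0.14, adjusted *p* = 1.1e-06, -0.04 in GIM-012). *thetaTry* (-1.64 ± 0.25) and *alphaTry* (-0.83 ± 0.18) were left out by values of 0.11 and 0.45 in GIM-012. Reads shared between near-identical genes had been discarded, so levels of single members of this list are uncertain. Of 9 midgut enterocyte markers 7 were called lower, 2 with 1 sign, where 2.65% of all genes tested were called lower. The markers are no separate measure, since 5 of the 7 (*alphaTry*, *betaTry*, *Jon65Aiii*, *Jon99Ciii* and *Jon99Cii*) belong to the peptidase list too, and the pair with 1 sign were *Jon65Aiii* and *Npc1b*. The 9 markers summed to 838 to 5617 CPM in copper libraries and 1606 to 8662 CPM in control libraries. Their part in the decrease of the peptidases was not tested.

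Of 10 Niemann-Pick type C genes, which encode sterol-binding proteins, 3 were called lower (*Npc2d*, *Npc2f* and *Npc1b*), 1 of them with 1 sign. Of 16 zinc transporters 2 were called lower (*Zip42C.1* and *Zip42C.2*), 1 with 1 sign, where 2.65% of all genes tested were called lower. *Vha100-4*, a subunit of the proton pump, was the only one of 23 V-ATPase subunits called (-1.23 ± 0.24, adjusted *p* = 0.00057), with -3.38 in JUT-008 and -0.13 in GIM-012. *Zip42C.1*, a zinc transporter, was lower in all strains (-2.14 ± 0.33, adjusted *p* = 2.9e-05) at medians of 0.126 CPM in copper libraries and 0.664 CPM in control libraries. *Npc1b*, which takes up sterols in the midgut, was at -1.01 ± 0.21 (adjusted *p* = 0.0010). Of 5 copper cell markers 2 were called lower, *lab* and the same *Vha100-4*, of which only *Vha100-4* had 1 sign.

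No gene was called by edgeR or DESeq2 among 79 cytosolic ribosomal proteins, 72 genes of oxidative phosphorylation or 18 genes of DNA replication and the cell cycle, with 8, 2 and 8 of these at an unadjusted *p* below 0.05. These lists moved in opposite directions among strains. The median of the ribosomal proteins was 0.66 in GIM-012 and -0.39 to -0.14 in the other strains, and the test among strains passed for 77 of the 79 genes, against 30.1% of all genes tested. That of oxidative phosphorylation was 0.61 in GIM-012 and -0.41 to -0.10 in the others, with 61 of the 72 genes passing. All 18 replication genes were lower in GIM-012 (median -0.38) and none was lower in any other strain (medians 0.13 to 0.37), and 9 passed.

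**Figure D3:**
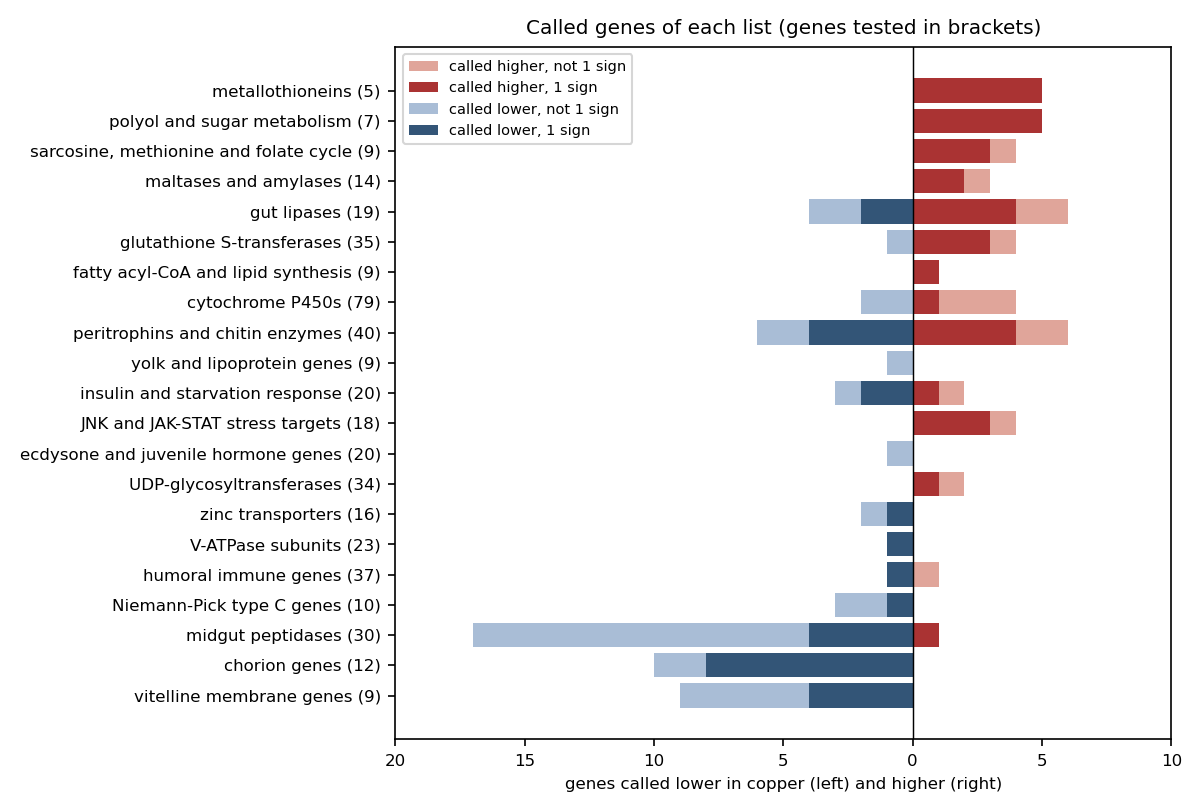
Number of called genes in each list with at least 1 call, lower in copper to the left and higher to the right, with the dark part of each bar for genes of 1 sign in all 6 strains and the number of genes tested in brackets. Metallothioneins (5 of 5) and polyol and sugar metabolism (5 of 7) stand on the right only, and the midgut peptidases have 17 lower genes of which 4 are dark.

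The size of the core response differed among strains. The test of the strain by treatment terms passed for 149 of the 236 core genes, and for 30.1% of all genes tested. The count over all genes was 3772, but 2130 without control 4 and 2311 without control 1 of GIM-012. For the higher core genes the median log2 fold change was largest in JUT-008 (1.40), then came GIM-012 (1.34), COR-018 (1.05), MUN-008 (0.94), AKA-018 (0.92) and MUN-020 (0.41). MUN-020 had the smallest increase for 71 of the 116 genes. For the lower core genes the medians were farthest from 0 in COR-018 (-2.35), then JUT-008 (-1.68), AKA-018 (-1.17), MUN-008 (-1.10), MUN-020 (-0.79) and GIM-012 (-0.33). GIM-012 had the smallest decrease for 88 of the 120 genes and COR-018 the largest for 77. The medians of the lower genes were nearer to 0 in the tolerant strains than in the sensitive strains, while those of the higher genes overlapped between the classes, and neither was tested for the class.

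**Figure D4:**
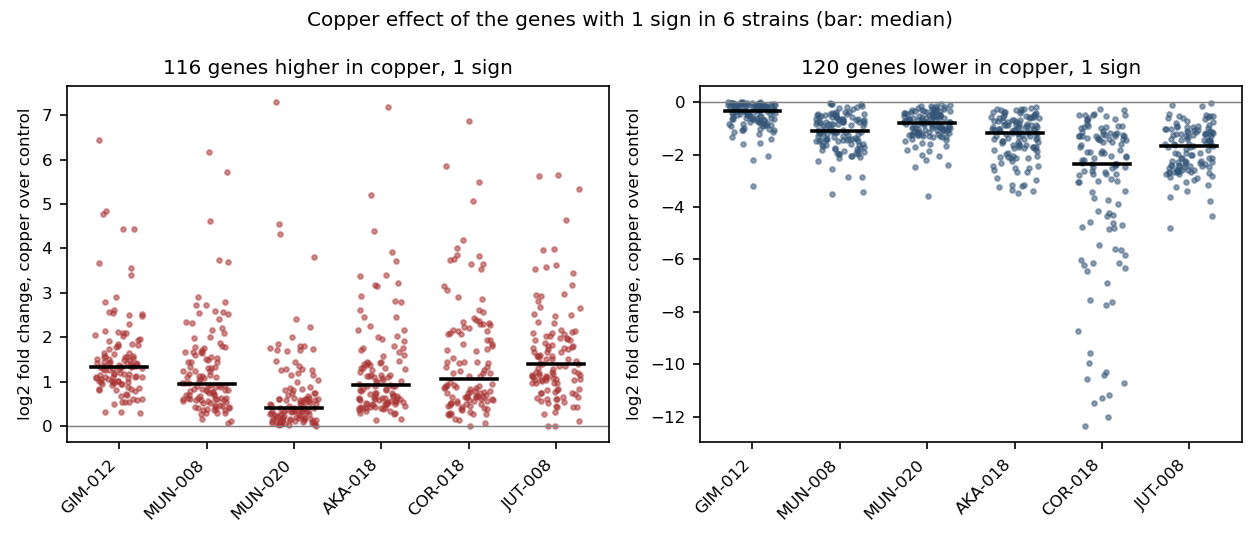
Log2 fold change of copper over control in each strain for the 116 higher (left) and 120 lower (right) core genes. Points are genes and bars are medians. The median of the higher genes is lowest in MUN-020 (0.41), and that of the lower genes is nearest to 0 in GIM-012 (-0.33) and farthest in COR-018 (-2.35).

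When each strain was set against the mean of the other 5, the effect of GIM-012 differed for 5381 genes (43.0% of those tested), that of COR-018 for 1039 (8.30%), that of JUT-008 for 274 (2.19%), that of MUN-020 for 74 (0.591%) and that of MUN-008 for 4 (0.0320%). No gene passed for AKA-018 by edgeR's test (565 at an unadjusted *p* below 0.05). Among the 236 core genes the numbers were 103 for GIM-012, 91 for COR-018, 32 for JUT-008, 18 for MUN-020 and 1 for MUN-008. Without control 4 of GIM-012 its effect differed for 3883 of all genes and 67 core genes, and without each of its other libraries for 4209 to 5591 and 83 to 104. The germline and fat body marker sums of GIM-012 and the eggshell sums of COR-018 are given above, and their part in these differences was not tested.

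A single strain most often kept a called gene out of the core. Of the 184 lower genes with the same sign in 5 strains, GIM-012 was the exception in 155. In 145 of these its effect differed from the mean of the others, as it did for 43.0% of all genes tested. Examples were *sug*, a transcription factor of sugar metabolism (-1.26 ± 0.16, 0.13 in GIM-012), *yip7*, a serine peptidase (-1.28 ± 0.18, 0.15 in GIM-012), and *GstE10* (-0.84 ± 0.12, 0.10 in GIM-012). Over all genes tested, the median log2 fold change was 0.12 in GIM-012 and -0.045 to 0.013 in the other strains, so the GIM-012 values of these examples lie close to its median. With each strain's effects taken relative to its median over all genes, GIM-012 was the exception in 121 of 155 such genes, and the core held 121 higher and 153 lower genes. Of the 84 higher genes with the same sign in 5 strains, MUN-020 was the exception in 47. In 11 of these its effect differed from the mean of the others, as it did for 0.591% of all genes tested. Examples were *Ilp7*, an insulin-like peptide (0.74 ± 0.14, -0.48 in MUN-020), and *CG16758* (1.11 ± 0.22, -0.74 in MUN-020). *GstD2* (1.69 ± 0.30) was at -0.13 in MUN-020, and its difference from the other strains did not pass (adjusted *p* = 0.13). The exceptions were picked by their sign in these same libraries, so the counts of 145 and 11 describe them and are no test.

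The sign in a strain that took no part in the call is a measure independent of it. With GIM-012 left out, 96.2% of the 186 genes called higher in the other 5 strains were also higher in GIM-012, while 34.3% of the 562 genes called lower were also lower in it. Over all genes tested that were higher or lower in the other 5 strains, 39.2% and 26.4% had the same sign in GIM-012. The share of higher genes rested on the fold-change threshold of the call. Without it, 24.5% of 2366 higher genes and 21.6% of 2358 lower genes had the same sign in GIM-012. Relative to the median of GIM-012 over all genes, 40.7% of the 562 called lower genes were lower, against 35.8% of all genes lower in the other strains. With MUN-020 left out the shares were 62.2% of 262 higher genes and 90.5% of 316 lower genes, against 62.1% and 58.5% of all genes tested in those directions. For MUN-008, AKA-018, COR-018 and JUT-008 the shares were 77.8% to 91.5% for higher genes and 90.2% to 97.6% for lower genes, against 65.0% to 75.0% and 61.5% to 68.0% of all genes tested. In these 4 strains and MUN-020, the shares without the fold-change threshold were 60.7% to 93.5% for higher and 84.9% to 95.3% for lower genes. Genes share libraries, so no test was made on these shares.

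**Figure D5:**
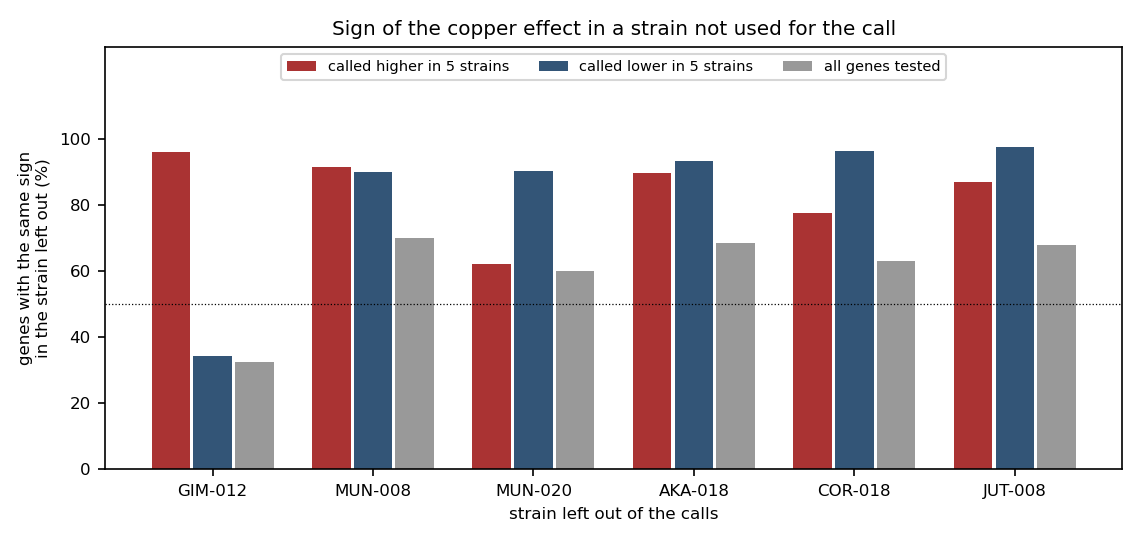
Share of genes (%) with the same sign of the copper effect in a strain left out of the call, for genes called higher or lower in the other 5 strains and for all genes tested, both directions pooled. The dotted line marks 50%. GIM-012 had 34.3% for lower genes and MUN-020 62.2% for higher genes, and each of the other bars of called genes reaches at least 77.8%. The bar of higher genes in GIM-012 (96.2%) holds for calls with a fold change over 1.5, and the share was 24.5% without that threshold.

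With the strain taken as the unit of replication, by summing counts per strain and treatment, 28 genes were called, 24 of them higher, and all 28 were in the core. They included *CG5966* (adjusted *p* = 1.9e-05), *MtnB* (adjusted *p* = 0.0037), *phu* (adjusted *p* = 0.0038), the other metallothioneins, *hll*, *Sodh1*, *Miox*, *Sardh*, *CG3534* and *TotM*. None of the eggshell genes or midgut peptidases was among them. The 10 candidate genes had 8 calls higher and 2 lower in the fit of all libraries, 6 and 2 of them with 1 sign.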

How the data were processed

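RNA-seq of whole females from 18 copper and 16 control libraries was analysed from the raw counts per gene deposited by the authors. They trimmed reads with Trim Galore (v.0.5.0) and Cutadapt (v.1.18), mapped them to r6.15 of the genome (dm6) with STAR (v.2.6) and counted them with featureCounts (v.1.6.2, reverse-stranded), discarding multi-mapping reads and reads overlapping several genes. The table's label mentions male removal, which the methods do not describe. Groups were taken from the sample descriptions. Counts were TMM-normalized in edgeR 4.0.16 (R 4.3.3) and filtered with filterByExpr, with strain and treatment as the group. Treatment was tested by the quasi-likelihood test in a model of strain and treatment, and strain effects came from a model with strain by treatment terms. The SE of a log2 fold change was derived as its absolute value over the square root of the F statistic of the treatment test. The scripts were tested on simulated data. Alternatives were DESeq2 1.42.0, RLE or library-size scaling, other filters, thresholds and models, and leaving out strains or libraries. Each strain against the mean of the others, that contrast without single GIM-012 libraries, and strain effects relative to their median over all genes were added after seeing the data. The members and gene lists were chosen with earlier results of these data known.

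Named genes have a mean of at least 2 CPM and 1 sign in all strains, and are the 12 largest increases and decreases and the 5 lowest *p* in each direction. To these were added the 5 core genes with the lowest *p* of the test among strains, up to 3 core members of each list by lowest *p* at any level, the 10 candidates, and defining members of lists. Other genes were named after their values were seen. Replicates differed by more than counting error (chi-squared per degree of freedom 8.7 to 274.0 over 32 pairs). The highest values were those of GIM-012 copper 1 with its copper 4 (274) and copper 2 (140). Outside GIM-012 the highest was 83.3, for copper 1 and 3 of MUN-020. The chi-squared is 1 value per pair over all genes, so it does not show what limits the precision of genes with few reads. Symbols and positions come from the Ensembl annotation of BDGP6, and 16198 of 16495 genes had an entry.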

Additional observations from a re-analysis of the deposited data

Results flagged for a closer look

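The copper effect differed among the 6 strains for 3772 of the 12511 genes tested, and for 149 of the 236 core genes (edgeR's F test of the strain by treatment terms, adjusted *p* below 0.05). Against the mean of the other 5 strains, the effect differed for 5381 genes in GIM-012, 1039 in COR-018, 274 in JUT-008, 74 in MUN-020 and 4 in MUN-008. The count for GIM-012 was 3883 without its control 4 and 5591 without its control 2, and the test among the 6 strains passed for 2130 and 4298 genes without those libraries. Of the 331 lower genes, 152 were also lower in GIM-012, and 179 and 135 were so without those libraries.

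Of the core genes, 5 had the lowest *p* of the test among strains. *Cp38* (adjusted *p* = 6.991e-08) was at -12.35 in COR-018 and at -2.27 to -0.63 in the other strains, and *Cp36* (adjusted *p* = 7.199e-08) at -11.48 and -2.23 to -0.40. *CG9682* (adjusted *p* = 7.55e-08) was at -4.22 in COR-018 and -0.20 in GIM-012. *CG11381* (adjusted *p* = 8.575e-08) had 0, 1 and 0 reads in the copper libraries of COR-018, against 1371 to 2948 reads in its control libraries, and was at -2.35 to -0.63 in the other strains. *Pfas*, a purine synthesis enzyme (adjusted *p* = 1.674e-07), was at 1.7 in COR-018, 1.06 in JUT-008 and 0.17 to 0.37 in the other strains. Of the 64 named genes, 54 had effects that differed among strains.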

How the results depend on the processing

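Every one of the 64 named genes kept its direction in 3118 comparisons with an alternative, and in 86 of these it was no longer called. The counts given here are of higher and lower called genes and, after them, of higher and lower core genes, which were 215, 331, 116 and 120. Only those counts that moved by more than 1.5 times are given. With at least 10 counts in every library they were 113 and 209, and 73 higher core genes. Without a strain term they were 89, 82, 74 and 48, and with counts summed per strain 24, 4, 24 and 4. The lists with at least 3 members called in 1 direction were 15, but 8 without a strain term, 3 with summed counts and 7 at a log2 fold change over 1.5. With no fold-change threshold the counts were 681, 1004, 294 and 314, with a fold change over 2 they were 115, 163, 65 and 76, and with a log2 fold change over 1.5 they were 51, 88, 35 and 51. With a fold change over 1.5 in each strain the core held 31 and 24 genes, and with libraries that do not overlap in each strain 40 and 19. Leaving out GIM-012 gave 562 lower and 435 lower core genes, with 215 of its 541 core genes shared with the 236. Leaving out MUN-020 gave 207 higher core genes. Lower genes numbered 207 without COR-018, 209 without JUT-008 and 132 without AKA-018 and COR-018 together, a setting chosen after seeing the data. Of the 232 core genes in that last setting, 175 were shared. The genes that differed among strains were 759 in all and 95 in the core without GIM-012, and 88 in the core without COR-018.

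Without 1 library, the higher genes numbered 191 to 241, the lower genes 275 to 380, the higher core genes 108 to 135, the lower core genes 101 to 152, the lists 15 to 15, the genes that differed among strains 2130 to 4298 and those of them in the core 122 to 151. DESeq2 called 238 and 323 genes, with 125 and 134 in the core. With no fold-change threshold in the call, a choice also made after seeing the data, the share of genes of the same sign in the strain left out was 24.5% for higher and 21.6% for lower genes in GIM-012, and for lower genes 93.4% in MUN-008, 84.9% in MUN-020, 89.5% in AKA-018 and 88.1% in JUT-008. With a replicate block, pairing libraries of 1 number within a strain, 154 higher and 197 lower genes were called, and 103 and 92 were core genes. The block left 5 of the 10 called chorion genes, and *Cp36*, *Cp38* (adjusted *p* = 0.13 each) and *GstD6* (adjusted *p* = 0.055) uncalled. After removal of group means, 2 of 15 same-number pairs correlated above 0.1 (median -0.102). With groups this small, these correlations cannot decide whether the numbers pair libraries. The causes of these changes were not tested.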

Other observations

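The core also held genes outside the lists above, chosen here after their values were seen, and each was higher in copper in all 6 strains (adjusted *p* by edgeR). Among enzymes of purine synthesis, *CG11089*, a predicted enzyme of the last steps, averaged 333 ± 189 CPM in copper libraries (SD, n = 18) and 131 ± 23.6 CPM in control libraries (SD, n = 16), a change of 1.21 ± 0.15 on the log2 scale (adjusted *p* = 9.3e-07). Its strain values ran from 0.41 in MUN-020 to 2.27 in COR-018. *Gart* changed by 0.88 ± 0.13 (adjusted *p* = 1.1e-05), with 1.8 in COR-018 and 0.08 in MUN-020, and its libraries did not overlap in 5 strains. *Pfas* changed by 0.65 ± 0.11 (adjusted *p* = 0.00013) with no overlap in any strain. In the breakdown of threonine to glycine, *Tdh* averaged 17.8 ± 17.3 CPM in copper libraries and 3.53 ± 1.31 CPM in control libraries (1.83 ± 0.30, adjusted *p* = 6.5e-05), with 3.65 in COR-018 and 0.07 in MUN-020, and *Gcat* changed by 0.72 ± 0.12 (adjusted *p* = 7.0e-05).

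Some core genes encode enzymes of sugar and amino acid metabolism. *Got1*, an aspartate aminotransferase, averaged 361 ± 48.4 CPM in copper libraries and 234 ± 21.6 CPM in control libraries (0.61 ± 0.05, adjusted *p* = 5.0e-11), with 0.34 to 0.86 among strains. *Galk*, galactokinase, averaged 318 ± 61.7 CPM in copper libraries and 175 ± 44.0 CPM in control libraries (0.87 ± 0.07, adjusted *p* = 4.9e-10). *Pgm1* (0.61 ± 0.08), *Taldo* (0.72 ± 0.09) and *fbp* (0.72 ± 0.08), enzymes of the glucose phosphate, pentose phosphate and gluconeogenic pathways, had libraries without overlap in all 6 strains. Of the tyrosine breakdown enzymes, *hgo* changed by 0.99 ± 0.11 (adjusted *p* = 1.2e-07) and *Faa* by 0.60 ± 0.10 (adjusted *p* = 5.9e-05), while *Hpd* was called higher (0.89 ± 0.13) but was at -0.05 in MUN-020. MUN-020 gave the smallest value of *Got1*, *Galk*, *Pgm1*, *Taldo*, *fbp*, *hgo* and *Faa*. Of the lower core genes, *Lsd-1*, a lipid droplet protein of the fat body, averaged 70.0 ± 31.5 CPM in copper libraries and 137 ± 56.7 CPM in control libraries, without overlap in any strain (-1.15 ± 0.12, adjusted *p* = 3.6e-08). The fat body sums were lower on copper in 4 strains and higher in GIM-012, and their part in this decrease was not tested.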
